A study of Mus musculus with 6 samples.

Results

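Oxidative phosphorylation is carried out by 5 complexes of the inner mitochondrial membrane. Complexes I and II pass electrons from NADH and succinate to ubiquinone, complex III passes them on to cytochrome c, complex IV reduces oxygen, and complex V, the ATP synthase, uses the proton gradient that complexes I, III and IV build. Assembly factors help to build the complexes and mostly leave the finished enzyme. Resting natural killer (NK) cells depend largely on this pathway for ATP, and cytokines such as IL-15 and IL-2 are known to change how lymphocytes use it. The genes described here are those whose names in the deposited tables begin with Nduf, Sdh, Uqcr or Atp5, or with Cox and a digit. The rule used no measured value and found 105 of 24343 listed genes, 82 for subunits and 23 for assembly factors and related proteins.

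RNA sequencing was done on NK cells sorted from spleens of female C57BL/6 mice that had received either IL-15 cytokine complexes (IL-15C, 3 libraries) or IL-2 cytokine complexes (IL-2C, 3 libraries). Cells that stained for NK1.1 and NKp46 and lacked CD3 and CD1d tetramer staining were kept. The labels give neither the carrier of the complexes nor dose, time, age or whether each library is from its own mouse. Each p-value sets a group difference against the scatter of these libraries. That scatter may be only technical, so the p-values may not carry over to other mice. Untreated cells were not analysed here, and each difference below is IL-15C minus IL-2C.

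The deposited values are FPKM, fragments per kilobase of transcript and scaled to the number of mapped fragments, so levels can be set side by side between genes. The deposited bounds implied 23543141 to 27229145 fragments per library. Summed NK cell markers (9 of 9 tested, with 0 past the test and 3 lower with an unadjusted p under 0.05) stood at 10185 to 11607 FPKM, against 50.6 to 71.8 FPKM for 6 T cell markers. Markers of B cells (8 genes) summed to 42.3, 7.88 and 17.7 FPKM under IL-15C and 39.2, 66.1 and 15.3 under IL-2C. Of these, 6 were tested, and all 6 had changes below 0 (median -0.61) with 0 past the test and 0 with an unadjusted p under 0.05. The groups overlapped in this sum, and its part in the lower values of assembly factors below was not tested. Markers of macrophages and monocytes (8 genes) summed to 17.4 to 31.3 FPKM. IL-15C replicate 1 had the highest sum of granulocyte markers (8 genes), 113.7 FPKM against 41.7 to 62.2 in the other libraries, and of erythroid markers (6 genes), 21.8 FPKM against 1.18 to 3.80. Of 7 granulocyte markers tested, 1, Retnlg, was higher in IL-15C, and 0 had a change below 0 (median 0.12). Of 2 macrophage and monocyte markers tested, 0 had a change below 0 (median 0.19). Neither passed the test, and 1 was higher at an unadjusted p under 0.05. No gene of these marker lists was at 0 in all libraries. IL-15C replicate 1 also had the highest sum of OXPHOS subunits. The part of granulocytes and erythroid cells in that was not tested, and results without the library are given below.

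OXPHOS transcripts were at closely similar levels in the 2 treatments. Of 98 OXPHOS genes tested, 0 were higher in IL-15C and 2 were lower, Atp5s and Ndufa6, at an adjusted p under 0.05 (limma's moderated test on log2(FPKM + 1), Benjamini-Hochberg over all genes). At an unadjusted p under 0.05, 2 were higher and 8 lower, 2.04% and 8.16%, beside 6.48% and 20.4% of all tested genes. The share called was 2.04%, where 6.44% of all 9831 tested genes were called, 1.72% higher and 4.72% lower. The 3 values of one group lay wholly above those of the other for 16 genes, 16.3%, against 33.3% of all tested genes. Without IL-15C replicate 2, IL-2C replicate 1 or IL-2C replicate 2 the test called 0 OXPHOS genes, without IL-15C replicate 3 or IL-2C replicate 3 it called Atp5s alone, and without IL-15C replicate 1 it called 5, all lower. The median log2 change of the 98 genes was -0.01 and that of all tested genes was -0.04.

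The 95% interval of the change lay within 1.3-fold in either direction for 93 of 98 OXPHOS genes, against 91% of all tested genes. That bound was chosen after the values were seen. The 5 genes with intervals beyond it were Atp5e, Ndufa12, Sdhaf1, Sdhaf3 and Atp5s. Changes are on the log2(FPKM + 1) scale, where those of low genes come out too small. In bulk RNA, a lower value can come from fewer cells with a transcript or less of it per cell, and these cannot be told apart.

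**Figure D1:**
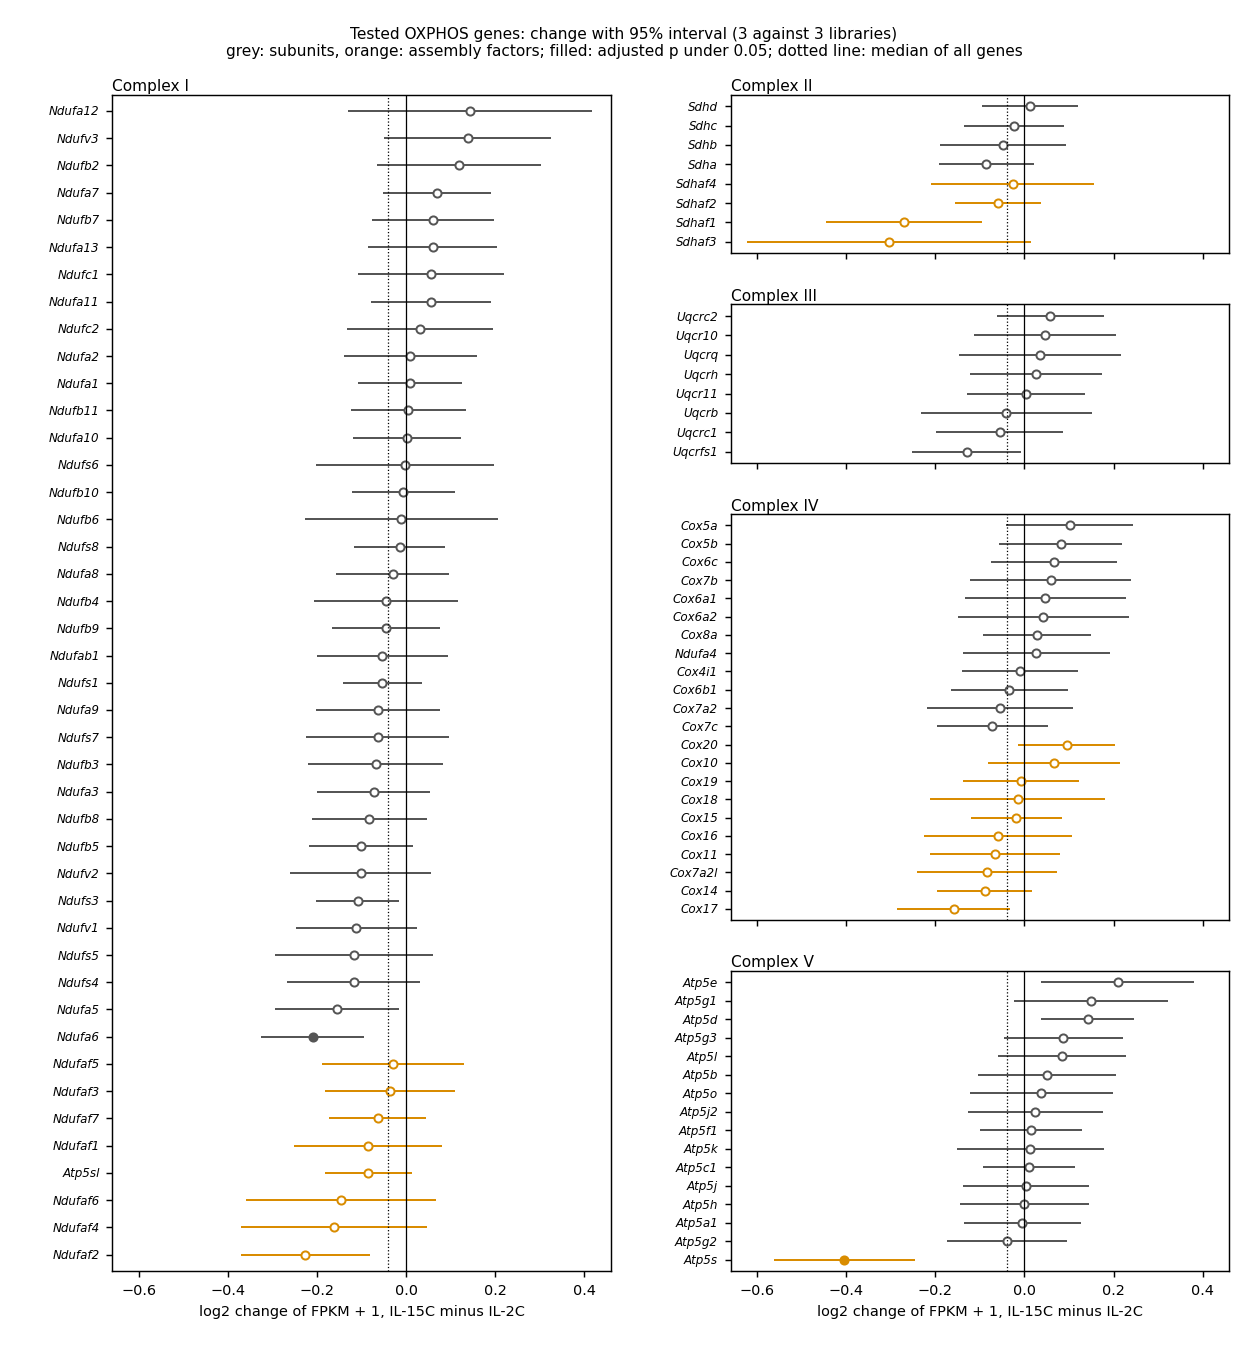
Log2 change of FPKM + 1 (IL-15C minus IL-2C, horizontal axis) with its 95% interval for 97 of the 98 tested OXPHOS genes, by complex; subunits are grey, assembly factors orange, filled points passed the test, and the dotted line marks the median of all tested genes, -0.04. Ndufa6 and Atp5s are the 2 filled points, and all 12 assembly factors of complexes I and II lie left of 0.

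Subunits and assembly factors differed in where their values fell. Of 75 tested subunit genes, 36 had a change below 0 and 39 above, with a median of 0.004. Of 23 tested assembly factors, 21 (91.3%) had a change below 0, with a median of -0.07. All tested genes had 64.7% below 0. The median transcript length of assembly factors was 1320 nt. Other tested genes of 800 to 1500 nt (2258 genes) had 68.1% below 0 and a median of -0.05. With libraries scaled to a common median, 15 of 23 assembly factors and 24 of 75 subunits were below 0, beside 49.8% of all tested genes. Median scaling also called 325 genes higher and 207 lower among all tested genes, where 169 and 464 were called without it.

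FPKM summed over the 23 assembly factors was 414.0, 415.6 and 414.9 under IL-15C replicates 1 to 3 and 453.6, 428.4 and 432.3 under IL-2C replicates 1 to 3. The groups did not overlap, and the IL-15C mean was 5.31% below the IL-2C mean. The supercomplex factor Cox7a2l is a large part of this sum. Without it, the other 22 summed to 285.7, 265.0 and 265.5 under IL-15C and 293.6, 283.9 and 283.2 under IL-2C, so that IL-15C replicate 1 overlapped the IL-2C values, while the IL-15C mean was 5.19% below the IL-2C mean. The 82 subunits summed to 6475, 6010 and 5816 FPKM under IL-15C and 6377, 5790 and 5966 under IL-2C, overlapping, with means of 6100 ± 339 (SD, n = 3) and 6044 ± 301 (SD, n = 3).

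Replicate 1 was the highest library of each group for subunits. The median subunit deviated from its own mean over all libraries by 0.10, -0.02 and -0.08 on the log2 scale in IL-15C replicates 1 to 3, and by 0.07, -0.05 and -0.02 under IL-2C replicates 1 to 3. The spread within each group was thus wider than the difference between group means. Subunit transcripts are short, with a median length of 718 nt against 2133 nt over all tested genes. Other genes under 800 nt (532 genes) deviated by 0.02, -0.03 and -0.05 under IL-15C and 0.07, -0.001 and -0.01 under IL-2C, and other genes over 3000 nt by 0.009, -0.01 and -0.02 under IL-15C and 0.02, 0.02 and -0.0002 under IL-2C. All tested genes deviated by 0.006, -0.03 and -0.04 under IL-15C and 0.05, 0.02 and -0.007 under IL-2C. Replicate 1 was thus the highest of each group there too. Under IL-2C, replicates 2 and 3 stood in another order for subunits than for all tested genes. The deviation of IL-15C replicate 1 was larger for subunits, at 0.10, than for other genes under 800 nt (0.02) or all tested genes (0.006). With a length trend removed from each library, the median change of subunits was 0.04 and that of all tested genes 3.6e-06.

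Without IL-15C replicate 1, the median change of subunits was -0.04, with 54 of 75 below 0, and that of assembly factors was -0.08, with 21 of 23 below 0. The medians of the subunits of complexes III, IV and V were then -0.04, -0.01 and -0.02, where all 3 had been above 0, and that of all tested genes was -0.05.

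**Figure D2:**
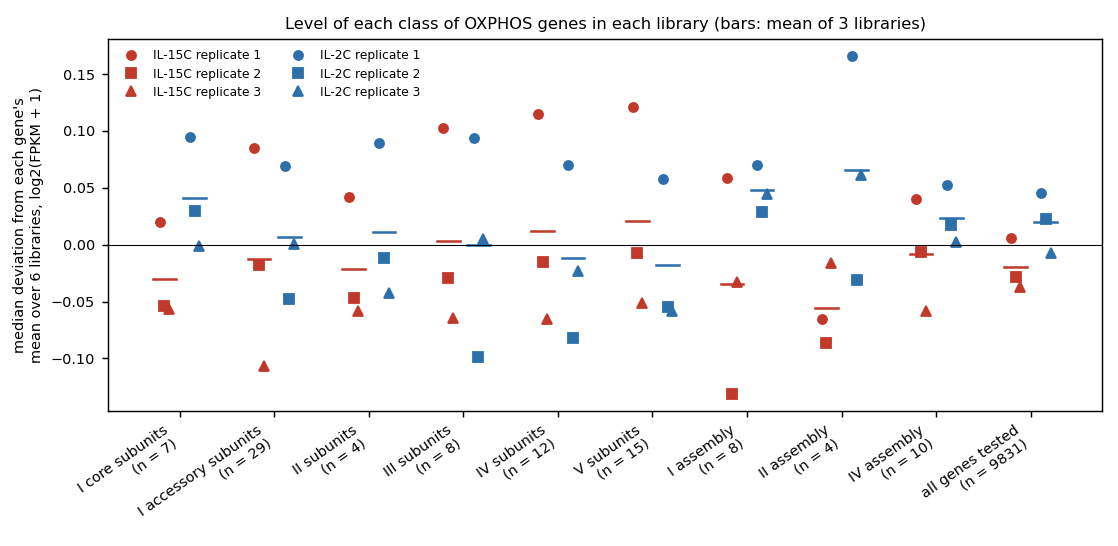
Median deviation from each gene's own mean over the 6 libraries, on the log2(FPKM + 1) scale (vertical axis), for each class of tested OXPHOS genes and for all tested genes; points are libraries and bars are means of 3. Circles (replicate 1) stand highest in most subunit classes of both groups. The IL-15C bars lie below the IL-2C bars in all 3 assembly classes. They also do so for the subunits of complexes I and II and for all tested genes (-0.02 against 0.02).

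Complex I is the largest complex and takes electrons from NADH. Its 7 nuclear core subunits, which hold the flavin and the iron-sulfur clusters, all had changes below 0, with a median of -0.10 and a range from -0.11 to -0.01. None passed the test, and 1, Ndufs3, had an unadjusted p under 0.05. After scaling to a common median, rescaling to one sum, quantile normalization or removal of a length trend, 6 of 7 were below 0. The intervals of all 7 lay within 1.3-fold. For Ndufs7, the authors' deposited group values have an FPKM interval that starts at 0 in both groups, and its locus overlaps that of Bc1.

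Ndufs1, which carries the iron-sulfur clusters at the entry of the electron path, measured 25.1, 25.7 and 25.5 FPKM under IL-15C and 27.0, 26.3 and 26.1 under IL-2C. Its groups did not overlap, but the change was -0.05 ± 0.04 (SE), with an adjusted p of 0.393 (limma). Ndufv1, which holds the flavin and binds NADH, had the largest core change, -0.11 ± 0.06 (SE), from values of 18.5, 17.5 and 16.0 FPKM under IL-15C and 19.8, 18.6 and 17.9 under IL-2C. The Ndufv1 groups overlapped, since the highest IL-15C library exceeded the lowest of IL-2C (adjusted p = 0.257, limma).

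The 29 accessory subunits surround the core and are needed for stability and assembly. Their median change was -0.006, with 16 below 0; 1 was lower and 0 higher by the test, and 2 had an unadjusted p under 0.05, both lower. The lower one was Ndufa6, an accessory subunit of the matrix arm that binds the acyl carrier protein Ndufab1, at chr15:82350139-82354291 (mm10). Ndufa6 measured 76.5, 73.2 and 73.6 FPKM under IL-15C and 92.1, 82.9 and 83.9 under IL-2C, from 1475 to 1989 implied fragments per library. The groups did not overlap, with IL-2C replicate 1 the highest library. Its means were 74.4 ± 1.79 and 86.3 ± 5.06 FPKM (SD, n = 3 each), a fall of 0.21 ± 0.05 (SE) on the log2 scale with an adjusted p of 0.0431 (limma), or 13.8% of the IL-2C mean. The Ndufa6 call was lost when any library but IL-15C replicate 1 was left out, with adjusted p from 0.0643 to 0.129, and under 3 of the other settings, no filter, median scaling and no trend, with 0.0566 to 0.0963.

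Its partner Ndufab1 had a change of -0.05 ± 0.06 (SE). The most abundant accessory subunit was Ndufa3, at 143 ± 9.15 FPKM under IL-15C and 151 ± 5.23 under IL-2C (SD, n = 3 each), with overlapping values and a change of -0.07 ± 0.06 (SE). Accessory subunits spanned a wide range of FPKM values, from Ndufa11 at 5.81 FPKM to Ndufa3 at 147 FPKM over all libraries. Ndufa11 had 736 to 873 implied fragments per library, where Ndufa12 had 353 to 492 at a higher FPKM. FPKM and implied fragments thus ordered these genes differently, and the low FPKM of Ndufa11 need not mean a scarce transcript. Ndufa12, which takes the place of the assembly factor Ndufaf2 late in assembly, had the highest mean change of complex I, 0.14 ± 0.12 (SE). That value came from IL-15C replicate 1, at 29.6 FPKM, where the other 5 libraries held 19.6 to 22.1.

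The sequence before the start of Ndufa6 is shown with that of Atp5s, because these were the only OXPHOS genes past the test. Both are RefSeq sequences on GRCm38.p6, the 100 bases before the annotated start, read 5′ to 3′ on the gene's strand. Capitals mark the CCAAT letters, a common promoter element, which lie once in each. Ndufa6 lies on the minus strand (chr15:82354292-82354391) and Atp5s, which RefSeq lists as Dmac2l, on the plus strand (chr12:69724845-69724944).
Ndufa6: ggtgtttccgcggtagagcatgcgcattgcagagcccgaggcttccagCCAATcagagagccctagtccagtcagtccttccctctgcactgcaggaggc
Atp5s: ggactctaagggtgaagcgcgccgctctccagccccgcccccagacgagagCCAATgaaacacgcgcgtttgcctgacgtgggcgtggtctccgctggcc

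Windows ran from 250 bases before to 50 bases after the start, and 87 of the 105 genes had any. The CCAAT letters were found on either strand in windows of 42.5% of these OXPHOS genes and of 42.8% of tested genes. Sharing them is therefore common among genes.

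The 8 assembly factors of complex I all had changes below 0, with a median of -0.09, and 0 passed the test (1 had an unadjusted p under 0.05). Their FPKM sum was 52.4, 48.0 and 50.3 under IL-15C and 55.1, 53.9 and 53.5 under IL-2C, with no overlap. Ndufaf2, a chaperone that holds the place of Ndufa12 during assembly, had the largest change, -0.23 ± 0.06 (SE, adjusted p = 0.0622, limma). It measured 5.42, 4.94 and 4.65 FPKM under IL-15C and 6.16, 5.62 and 6.29 under IL-2C, without overlap, from 124 to 184 implied fragments. Ndufaf2 passed the test with array weights and without IL-15C replicate 1. Atp5sl, which is named after the ATP synthase but acts in building the membrane arm of complex I, was the most abundant of the 8 at 18.4 FPKM, with a change of -0.09 ± 0.04 (SE).

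Complex II, succinate dehydrogenase, links the citric acid cycle to the chain. All 4 subunits are nuclear genes, and none passed the test or had an unadjusted p under 0.05. Sdha, the flavoprotein that oxidizes succinate, measured 61.9, 61.6 and 59.6 FPKM under IL-15C and 68.1, 64.9 and 61.7 under IL-2C. The groups met at the edge, with IL-15C replicate 1 above IL-2C replicate 3, and the change was -0.09 ± 0.05 (SE, adjusted p = 0.271, limma). Sdhb, the iron-sulfur subunit, had means of 52.3 ± 2.96 and 54.2 ± 4.10 FPKM (SD, n = 3 each) and a change of -0.05 ± 0.06 (SE). The membrane anchors Sdhc and Sdhd had changes of -0.02 and 0.01.

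The 4 assembly factors of complex II had a median of -0.17, the lowest of the classes with more than 1 gene, and 0 of 4 passed the test (1 had an unadjusted p under 0.05). With a mean of at least 5 FPKM required, which leaves out Sdhaf3, the median was -0.06. Sdhaf3 had the largest change, -0.30 ± 0.14 (SE, adjusted p = 0.202, limma), and from 31 to 76 fragments per library, with the lowest number of any tested OXPHOS gene in a single library. It measured 1.75, 2.69 and 3.30 FPKM under IL-15C and 3.25, 3.71 and 3.10 under IL-2C, so the groups overlapped and IL-15C replicate 1 was the low library. Sdhaf1, which helps to insert the iron-sulfur clusters of Sdhb, measured 7.36, 7.29 and 6.77 FPKM under IL-15C and 9.83, 7.70 and 9.02 under IL-2C. The groups did not overlap, and the change of -0.27 ± 0.08 (SE) had an adjusted p of 0.0651 (limma). Sdhaf1 lies outside the rule for named genes and is given after its values were seen. Sdhaf2, which aids the attachment of flavin to Sdha, was the most abundant of the 4, with means of 15.4 ± 0.0775 and 16.1 ± 0.539 FPKM (SD, n = 3 each).

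Complex III, the cytochrome bc1 complex, had 8 tested subunits with a median change of 0.01 and 3 below 0. None passed the test, and the intervals of all 8 lay within 1.3-fold. Uqcrfs1, the Rieske iron-sulfur protein, had the largest change, -0.13 ± 0.05 (SE, adjusted p = 0.157, limma), and the only unadjusted p under 0.05. It measured 45.1, 43.1 and 44.6 FPKM under IL-15C and 52.5, 47.1 and 46.3 under IL-2C, without overlap. Uqcrc1, a core subunit on the matrix side, had means of 54.9 ± 3.61 and 57.1 ± 3.92 FPKM (SD, n = 3 each), with overlapping values. Uqcrh, the hinge protein that helps cytochrome c1 meet cytochrome c, was the most abundant at 194 FPKM over all libraries, with a change of 0.03 ± 0.06 (SE).

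Complex IV, cytochrome c oxidase, had 19 listed subunit genes, of which 12 were tested. Their median change was 0.04, 4 were below 0, and 0 passed the test or had an unadjusted p under 0.05. The intervals of all 12 lay within 1.3-fold. Cox4i1, a subunit through which ATP is known to regulate the enzyme, measured 242, 250 and 241 FPKM under IL-15C and 266, 236 and 237 under IL-2C. The values overlapped fully, and the change was -0.01 ± 0.06 (SE), with a 95% interval from -0.14 to 0.12. Cox5a, a small matrix-side subunit, had the largest change of the class, 0.10 ± 0.06 (SE, adjusted p = 0.328, limma), from 97.7, 85.5 and 85.3 FPKM under IL-15C and 88.1, 80.7 and 81.0 under IL-2C. Cox8a was the most abundant OXPHOS gene, with means of 296 ± 8.44 and 290 ± 13.6 FPKM (SD, n = 3 each).

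Several complex IV subunits exist as isoforms used in different tissues, and in most sets these NK cells used mostly 1 gene. The COX7A set was the exception. It was summed over Cox7a1, Cox7a2 and Cox7a2l, the last counted here as an assembly factor. Cox4i2, the lung isoform, the muscle isoform Cox8b, the testis isoforms Cox7b2 and Cox8c, and Ndufa4l2, a relative of Ndufa4, were listed at 0 in all 6 libraries. Their partners Cox4i1, Cox7b, Cox8a and Ndufa4 therefore made up 100% of their sets. Cox6b2, a testis isoform, was 0.167% to 0.325% of the COX6B sum, at 2 to 6 implied fragments per library. Cox7a1, the heart and muscle isoform, was 0.179% to 0.313% of the COX7A sum, at 3 to 6 fragments. These 7 genes were below the filter of a mean of 1 FPKM and were not tested. Just inside it stood Ndufaf6, at a mean of 1.03 FPKM.

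Cox6a2, the other heart and muscle isoform, was measurable, at 2.64, 2.53 and 3.22 FPKM under IL-15C and 2.65, 2.43 and 2.95 under IL-2C. It held 1.08% to 1.59% of the COX6A sum, the rest being Cox6a1, and its change was 0.04 ± 0.08 (SE). Its locus overlaps that of Itgad, and since no source used here states whether counting used strand, reads of the 2 genes may be mixed. In the COX7A set, the supercomplex factor Cox7a2l held 69.5% to 75.7% of the sum and Cox7a2 23.9% to 30.3%. IL-15C replicate 1 had the lowest Cox7a2l share. Ndufa4, named for complex I but part of complex IV, had means of 137 ± 12.1 and 135 ± 9.34 FPKM (SD, n = 3 each).

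**Figure D3:**
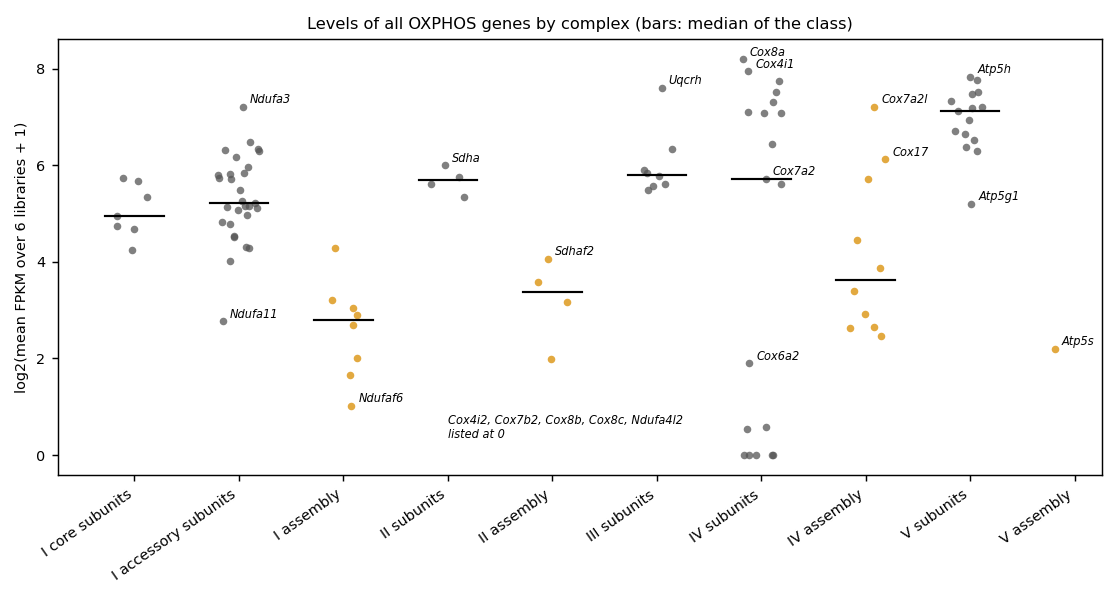
Log2(mean FPKM over 6 libraries + 1) of all 105 OXPHOS genes (vertical axis) by class (horizontal axis), with the class median as a bar; subunits are grey and assembly factors orange. Class medians of mean FPKM over tested genes run from 30.1 (complex I core) to 139 (complex V) for subunits, and the assembly classes lie lower, at 3.60 (Atp5s alone) to 11.6.

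The 10 genes for assembly of complex IV and related factors had a median change of -0.04, with 8 below 0, and 0 passed the test (1 had an unadjusted p under 0.05). That median was 0.00199 after median scaling and 0.0058 after quantile normalization. Cox17, the copper chaperone that feeds the copper sites, had the largest change, -0.16 ± 0.06 (SE, adjusted p = 0.107, limma). It measured 69.9, 63.3 and 61.8 FPKM under IL-15C and 75.7, 71.5 and 70.5 under IL-2C, without overlap, and passed the test with array weights and without IL-15C replicate 1. Cox7a2l, the most abundant, measured 128, 151 and 149 FPKM under IL-15C and 160, 144 and 149 under IL-2C, with overlap and a change of -0.08 ± 0.07 (SE). The only assembly factors with changes above 0 were Cox10, which makes heme O, and Cox20, which guides the COX2 protein, at 0.07 and 0.10.

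Complex V, the ATP synthase, was the class of subunits with the highest sum and had 12 of 15 changes above 0, with a median of 0.02. None passed the test, and 2 were higher at an unadjusted p under 0.05. Without IL-15C replicate 1, 6 of 15 were above 0 and the median was -0.02. The sums were 2194, 1999 and 1938 FPKM under IL-15C and 2073, 1893 and 1949 under IL-2C, with overlap. The catalytic beta subunit Atp5b measured 207, 178 and 176 FPKM under IL-15C and 189, 177 and 175 under IL-2C, and the alpha subunit Atp5a1 169, 155 and 155 against 171, 158 and 152. Their changes were 0.05 ± 0.07 and -0.005 ± 0.06 (SE), smaller than the spread between replicates. Atp5h, the d subunit of the outer stalk and the most abundant of the class, averaged 228 FPKM in both groups.

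The subunits of the central stalk, Atp5d (delta) and Atp5e (epsilon), were the 2 with an unadjusted p under 0.05. Atp5e had the largest change, 0.21 ± 0.08 (SE, adjusted p = 0.116, limma), from 258, 227 and 210 FPKM under IL-15C and 205, 189 and 206 under IL-2C. The groups did not overlap, though IL-15C replicate 3 and IL-2C replicate 3 differed little. Atp5d, which is given after its values were seen, measured 97.7, 96.0 and 93.4 FPKM under IL-15C and 90.7, 85.3 and 84.0 under IL-2C. Its change of 0.14 ± 0.05 (SE) had an adjusted p of 0.0877 (limma). Atp5d passed the test after median scaling, rescaling to one sum, quantile normalization, array weights or removal of a length trend, and Atp5e under the last pair. The third member of the central stalk, Atp5c1 (gamma), had means of 100.3 ± 0.943 and 99.6 ± 4.39 FPKM (SD, n = 3 each). The authors' deposited table gives Atp5d an interval that starts at 0 in both groups, and its locus overlaps that of Bc1.

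The c subunits form the rotor ring, and 3 genes encode the same mature protein. Atp5g1 held 12.6%, 11.0% and 11.3% of their summed FPKM under IL-15C and 10.3%, 11.0% and 10.9% under IL-2C (exact two-sided permutation p = 0.2). Atp5g2 held 42.9%, 45.6% and 43.6% under IL-15C and 46.4%, 47.0% and 45.9% under IL-2C, lower in all 3 IL-15C libraries (exact two-sided permutation p = 0.1). Atp5g3 held 44.5%, 43.4% and 45.1% against 43.3%, 41.9% and 43.3%, higher in all 3 IL-15C libraries (exact two-sided permutation p = 0.1). With 3 against 3 libraries 0.1 is the smallest p possible, and over the 3 shares the adjusted values were 0.2, 0.15 and 0.15. As changes in level, Atp5g1 had 0.15 ± 0.08, Atp5g2 -0.04 ± 0.06 and Atp5g3 0.09 ± 0.06 (SE), with 0 past the test. Reads can be shared between such similar genes, so the split between them is uncertain.

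Atp5s, factor B of the ATP synthase, was the only complex V gene outside the subunits and had the lowest change of all 98 genes. It lies at chr12:69724962-69744658 (mm10). Atp5s measured 2.76, 2.88 and 3.24 FPKM under IL-15C and 4.61, 4.14 and 3.98 under IL-2C. All 3 IL-15C libraries were below all 3 IL-2C libraries, with 135 to 170 implied fragments against 218 to 237. The means were 2.96 ± 0.248 and 4.24 ± 0.331 FPKM (SD, n = 3 each), and the fall of 0.40 ± 0.07 (SE) on the log2 scale had an adjusted p of 0.0189 (limma). The IL-15C mean was 30.2% below the IL-2C mean. The call was lost without a filter (adjusted p = 0.0756) and when IL-15C replicate 2 (0.0529), IL-2C replicate 1 (0.0766) or IL-2C replicate 2 (0.0755) was left out.

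**Figure D4:**
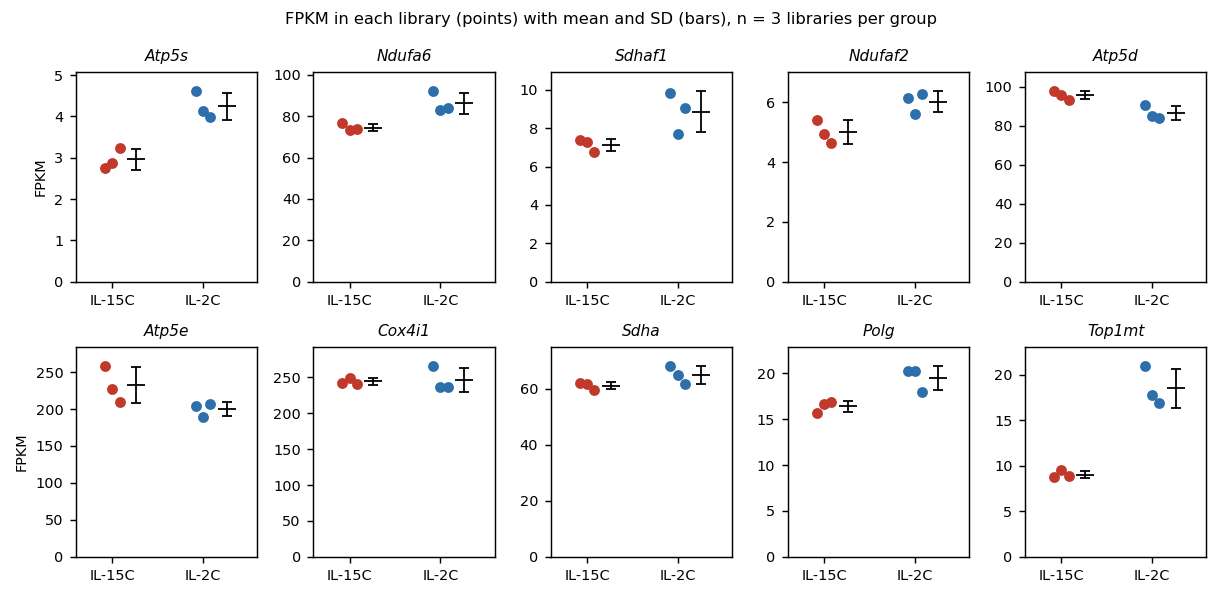
FPKM (vertical axis, from 0) of 8 OXPHOS genes and 2 genes of mitochondrial DNA upkeep in each library (points), with mean and SD (n = 3) beside each group. Atp5s, Ndufa6, Sdhaf1, Ndufaf2, Polg and Top1mt have all IL-15C points below the IL-2C points, Atp5d and Atp5e the reverse, and Cox4i1 and Sdha overlap.

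The group values of the authors' deposited table, which was scaled separately, gave a different balance of directions. In the authors' deposited table, 40 of 98 OXPHOS genes were lower in IL-15C, 24 subunits and 16 assembly factors, beside 50.1% of all tested genes. The library values had 57 of 98 below 0, beside 64.7%. In the authors' deposited table the group intervals were separate for 0 of 98 OXPHOS genes, beside 0.814% of all tested genes. For Atp5s the authors' deposited table lists 4.02 FPKM (2.94 to 5.11) in IL-15C and 5.58 (4.23 to 6.93) in IL-2C. For Ndufa6 the authors' deposited table lists 101 FPKM (85.0 to 117) and 114 (95.7 to 132).

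Several nuclear factors are known to drive OXPHOS genes, among them NRF1, GABP, the estrogen-related receptors and YY1. Their letters were searched on both strands of the 94 RefSeq windows of 87 OXPHOS genes. A gene was counted if any of its windows held the letters. No motif contains the letters of another. The NRF1 palindrome, whose letters are the capitals below, was held by 7 genes, 8.05%, against 2.70% of tested genes and 1.07% of all genes. The GABP letters CCGGAAG were held by 28.7% of OXPHOS genes against 23.6% of tested genes. The ERR letters TCAAGGTCA were held by 2 genes, Atp5g3 and Sdhd, 2.30% against 0.339%, and the YY1 letters by 8.05% against 2.95%. A match is a description of letters and not of binding.

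The NRF1 stretches of 5 genes from 4 classes are shown with 15 bases on either side, 5′ to 3′ on the gene's strand, with the palindrome in capitals (GRCm38.p6). They lie at chr15:102671065-102671104 (Atp5g2, minus strand), chr5:108434425-108434464 (Atp5k, minus), chr5:115349096-115349135 (Cox6a1, minus), chr17:56717687-56717726 (Ndufa11, plus) and chr4:24897955-24897994 (Ndufaf4, plus).
Atp5g2: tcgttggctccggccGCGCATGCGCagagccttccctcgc
Atp5k: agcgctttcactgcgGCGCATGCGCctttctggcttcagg
Cox6a1: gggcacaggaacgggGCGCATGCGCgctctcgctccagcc
Ndufa11: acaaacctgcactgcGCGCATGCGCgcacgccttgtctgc
Ndufaf4: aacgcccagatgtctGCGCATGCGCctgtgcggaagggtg

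None of the 7 genes with the palindrome passed the test. The changes of the 5 shown were -0.04 for Atp5g2, 0.01 for Atp5k, 0.05 for Cox6a1, 0.05 for Ndufa11 and -0.16 for Ndufaf4, and those of Ndufaf5 and Uqcrc1 were -0.03 and -0.06.

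Other genes of the pathway were read from lists. Nuclear subunits and electron carriers outside the naming rule (10 tested) had 0 higher and 0 lower by limma, with 1 higher at an unadjusted p under 0.05 and a median change of 0.05. The gene under 0.05 was 2010107E04Rik, at 0.18 ± 0.08 (SE, adjusted p = 0.174, limma), given after its values were seen. Cycs, cytochrome c, had a larger change, 0.26 ± 0.12 (SE, adjusted p = 0.204, limma), but an unadjusted p of 0.0597. Of 29 other assembly factors, 0 passed the test, 4 had an unadjusted p under 0.05, all lower, and 20 had changes below 0. Among all tested genes, 20.4% were lower at an unadjusted p under 0.05 and 64.7% had changes below 0. The 13 subunits encoded by mitochondrial DNA were not analysed here.

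Regulators of mitochondrial genes and keepers of mitochondrial DNA (18 tested) had 5 lower and 0 higher, 27.8% lower beside 4.72% of all tested genes. An unadjusted p under 0.05 was seen for 7 lower and 2 higher, beside 20.4% lower and 6.48% higher of all tested genes. The list was made with earlier results of these data known. Top1mt, the mitochondrial topoisomerase, measured 8.72, 9.52 and 8.87 FPKM under IL-15C and 21.0, 17.8 and 16.9 under IL-2C, a fall of 0.96 ± 0.07 (SE, adjusted p = 0.000702, limma), and passed the test in all 17 alternatives. Polg, the catalytic subunit of the mitochondrial DNA polymerase, fell by 0.23 ± 0.06 (SE, adjusted p = 0.0428), and its accessory subunit Polg2 fell by 0.23 ± 0.05 (SE, adjusted p = 0.0424, limma). Polg kept its call in 5 of 17 alternatives and Polg2 in 4 of 16.

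Polg measured 15.7, 16.6 and 16.9 FPKM under IL-15C and 20.3, 20.2 and 17.9 under IL-2C, and Polg2 4.26, 4.73 and 4.47 against 5.36, 5.62 and 5.26. The other 2 were Mterf1a, which binds the end of the mitochondrial ribosomal RNA unit, and Mterf3, an inhibitor of mitochondrial transcription. Mterf1a averaged 7.57 ± 0.187 and 9.07 ± 0.168 FPKM and Mterf3 14.8 ± 0.583 and 17.2 ± 0.306 (SD, n = 3 each). Mterf1a kept its call in 12 of 17 alternatives and Mterf3 in 8. The loci of Polg, Polg2 and Mterf3 overlap those of Fanci, Milr1 and Ptdss1.

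The nuclear transcription factors of the list did not pass the test. Nrf1, the gene of the NRF1 factor above, had a change of -0.08 ± 0.04 (SE, adjusted p = 0.267, limma), and Tfam, which packages mitochondrial DNA, -0.05 ± 0.04 (SE, adjusted p = 0.424). The 2 higher genes with an unadjusted p under 0.05 are given after their values were seen. Esrra, which encodes an estrogen-related receptor, measured 21.3, 21.1 and 19.9 FPKM under IL-15C and 18.8, 19.1 and 18.0 under IL-2C, without overlap, a change of 0.15 ± 0.04 (SE, adjusted p = 0.0781, limma), and passed the test in 4 of 17 alternatives (median scaling, quantile normalization, array weights and removal of a length trend). Pprc1, which encodes a coactivator related to PGC-1alpha, measured 3.93 to 5.75 FPKM under IL-15C and 3.21 to 3.72 under IL-2C, also without overlap (change 0.32 ± 0.11 (SE), adjusted p = 0.109, limma), and passed in 0 of 16 alternatives. Ppargc1a, a coactivator prominent in muscle and brown fat, was at 0.212 to 0.286 FPKM and was not tested.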

How the data were processed

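RNA was measured in 6 libraries of sorted splenic NK cells, 3 per treatment, grouped by their titles. Reads were handled with TopHat2 2.0.13, Cufflinks 2.2.1 and mm10, per the submitters' processing notes; annotation and strand use are not given in the sources used here. Per the file headers, the authors deposited FPKM values and interval bounds in 1 table per library, and group FPKM values with bounds (other values, in FPKM) in 1 further table. Each bound was read as 2 SD of a counting error, which gave implied fragments, a median of 1229 for tested OXPHOS genes. These cover counting error only, take the bounds to hold no other error, and are not read counts. In IL-15C replicate 1, Cox4i1 had 1867 at 242 FPKM and Cox8a 5196 at 303 FPKM. Their mean transcript lengths were 662 and 550 nt.

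The values of 280 genes with several rows were added up, and 10 genes with a failed estimate were left out, none of them OXPHOS genes. Genes with a mean of at least 1 FPKM were tested by limma 3.58.1 (R 4.3.3) with an intensity trend on log2(FPKM + 1), two-sided, with a Benjamini-Hochberg threshold of 0.05; the steps were tested on simulated data. Named genes were those past the test, the most changed and most abundant of each class, catalytic members and isoform sets. 1 gene that fits the naming rule is counted in its class but not reported by name. Other genes given with values, such as Sdhaf1, Atp5d, Ndufa12, Ndufab1, Cox10 and Cox20, were chosen after their values were seen. OXPHOS genes and lists were chosen with earlier results of these data known, so lists are described by counts and medians. Transcript lengths came from the GENCODE annotation of mm10 (99.4% of tested genes). Alternatives were 2 other pseudocounts, 2 filters, 3 scalings, no trend, array weights, a replicate block, removal of a length trend and leaving out each library. The CCAAT letters and the sums without Cox7a2l were added after the values were seen.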

Additional observations from a re-analysis of the deposited data

How the results depend on the processing

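Medians of subunits kept within the spread between libraries under all 17 alternatives, except that of complex I core subunits with a length trend removed (-0.047). Without a filter, all genes had 6 higher and 9 lower calls and a median of -0.0093; OXPHOS subunits had 0 lower and assembly factors 0. Median scaling gave 325 and 207 (median 0.00050), with 1 subunit higher and 0 lower, and a complex IV assembly median of 0.00199. Quantile normalization gave 307 and 269 (median -0.0067), 1 subunit higher, and medians of -0.022 for assembly factors and 0.0058 for those of complex IV. Rescaling to one sum (TPM) gave 1 subunit higher. Array weights gave 440 and 1667, with 2 subunits higher, 2 lower and 5 assembly factors lower. Removing a length trend gave 341 and 224 (median 3.6e-06), 2 subunits higher and an assembly median of -0.018. A mean of at least 5 FPKM gave 0 assembly factors lower, since Atp5s falls under it, and a complex II assembly median of -0.060; no trend gave 0 subunits lower. Other causes were not tested. Leaving out 1 library gave 14 to 176 genes higher and 15 to 575 lower, 0 to 1 subunits lower and 0 to 4 assembly factors lower; the OXPHOS calls were 0 without IL-15C replicate 2, IL-2C replicate 1 or IL-2C replicate 2. Without IL-15C replicate 1, 5 were lower (Atp5s, Cox17, Ndufa6, Ndufaf2 and Ndufaf4) and the OXPHOS median was -0.06.

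The titles number the replicates but do not say whether libraries of equal number were paired. Deviations of same-numbered libraries correlated at -0.03, -0.16 and -0.02, and those of differently numbered libraries at -0.14 to 0.18. With 3 libraries per group, these values cannot show whether samples were paired. With the replicate block, 171 genes were higher and 346 lower, with 0 and 2 OXPHOS genes, Atp5s and Ndufa6. Genes with few fragments, such as Sdhaf3 with 31 in 1 library, limit what this depth can show.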
